A study of Mus musculus with 10 samples.

Results

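Txnip, the thioredoxin-interacting protein, was examined together with 9 genes that act with it or share its regulators. They were the alpha-arrestin genes Arrdc2, Arrdc3 and Arrdc4, the glucose-sensing transcription factor genes Mlxip and Mlxipl, the thioredoxin genes Txn1 and Txn2, and the thioredoxin reductase genes Txnrd1 and Txnrd2. They were taken by symbol from a count table of 55385 genes, and all 10 were among the 18491 genes tested. The RNA-seq libraries were made from left ventricles of C56Bl6 mice, as the labels name the strain, and comprised 5 HFpEF libraries and 5 Control libraries. HFpEF mice had been kept for 6 weeks on high-fat feed and L-NAME, which blocks nitric oxide synthase; the combination is used to model heart failure with preserved ejection fraction. Control mice had eaten standard feed over the same 6 weeks, and no other allele or agent is labelled in either group. Age, sex and doses are not given in the sources used here. Nothing in the labels ties each library to its own mouse, and p-values therefore describe the spread between libraries, which may be technical.

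Txnip binds reduced thioredoxin at its catalytic cysteines and, as an alpha-arrestin, promotes the internalization of glucose transporters, so it lowers both thioredoxin activity and glucose uptake. Its transcription is driven by MondoA, the product of Mlxip, and by ChREBP, the product of Mlxipl. Both sense phosphorylated sugars and bind carbohydrate response elements together with the partner protein Mlx; Arrdc4 is another known MondoA target. In the heart, thioredoxin 1 in the cytosol and thioredoxin 2 in mitochondria reduce protein disulfides and are themselves kept reduced by the selenoproteins Txnrd1 and Txnrd2.

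Of the 10 genes, Txnip and Mlxip were higher in HFpEF ventricles and 8 were not called. None was called lower by edgeR, with 1 (Mlxipl) at an unadjusted p below 0.05 and called lower by DESeq2. Txnip showed a difference of 2.07-fold (95% interval 1.49 to 2.87) and Mlxip one of 1.23-fold (1.14 to 1.34). The thioredoxins, the reductases, Arrdc3 and Arrdc4 had log2 fold changes between -0.16 and 0.12. A gene was called at an adjusted p below 0.05, from the quasi-likelihood F test of edgeR, adjusted after Benjamini and Hochberg over the 18491 genes, and log2 fold changes are HFpEF over Control with their standard error (SE). By this rule 985 genes were called, or 5.33% of those tested, with 3.24% higher and 2.09% lower in HFpEF. An unadjusted p below 0.05 was far more common, at 3789 of the 18491 genes, and counts at that level are to be read beside it. The median log2 fold change was 0.04 over the 10 genes and -0.01 over all genes tested. Levels are counts scaled to library size (CPM), with library sizes adjusted by the trimmed mean of M-values (TMM). The plot of CPM by library shows every value of the 10 genes.

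**Figure D1:**
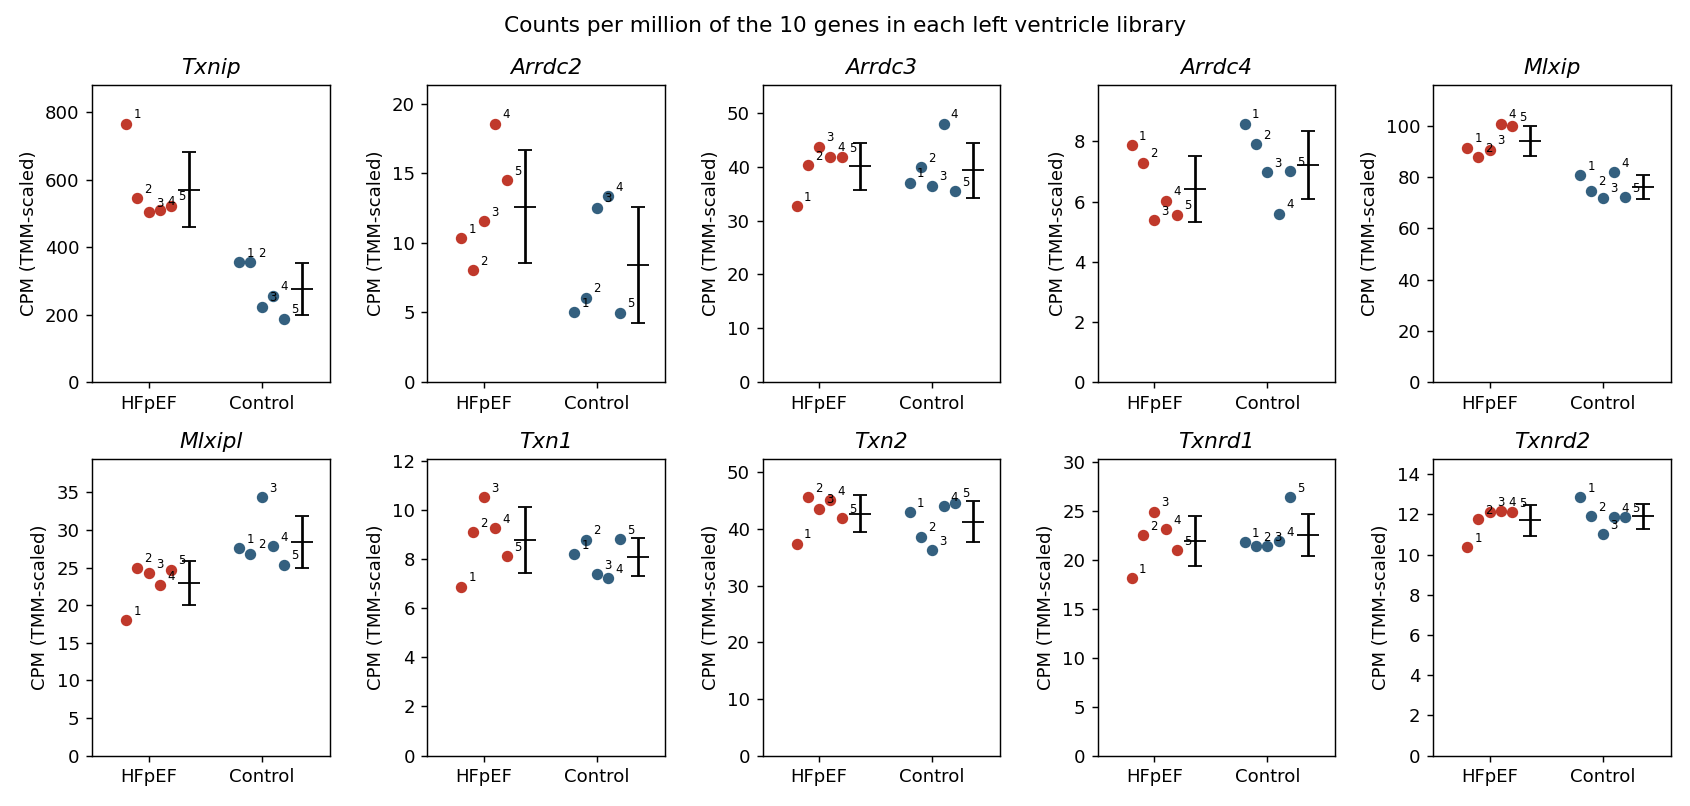
Each panel plots the CPM (TMM-scaled, axis from 0) of 1 gene in the 5 HFpEF libraries (red) and the 5 Control libraries (blue), numbered by replicate, with the group mean and SD as black bars. Txnip and Mlxip sit higher and Mlxipl lower in every HFpEF library than in any Control library, and the other 7 genes overlap between groups.

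Library totals ran from 31286355 to 33604554 counts in HFpEF and from 31555001 to 46108710 in Control (exact permutation test, two-sided p = 0.222; the smallest p that 5 against 5 allows is 0.00794). Mitochondrial transcripts took 37.6% ± 0.897 of the counts in HFpEF and 35.7% ± 1.70 in Control (SD, n = 5 each; exact permutation test, two-sided p = 0.0635). Cardiomyocyte markers summed to 25700 to 28045 CPM in HFpEF and 26620 to 28536 CPM in Control, led by the alpha myosin heavy chain gene Myh6 at 11839 and 12155 CPM. Of these 8 markers 1 was called, Tnnt2, the cardiac troponin T gene, which was lower in HFpEF (log2 fold change -0.22 ± 0.05, adjusted p = 0.0184). The Tnnt2 call was lost on omission of Control 1, HFpEF 2 or HFpEF 4 (p up to 0.0641 after adjustment). By edgeR 3 of the 8 markers had an unadjusted p below 0.05, and DESeq2 called 2. Of the 5 atrial markers listed, Myl7 (0.201 and 0.232 CPM) and Sln (0.0444 and 0.0256 CPM) were near 0 in HFpEF and Control. The natriuretic peptide gene Nppa, another of them, was lower in HFpEF and is given below with the whole list. Ucp1, which defines brown fat, was at 0 in all 10 libraries. In bulk tissue, fewer cells of a type and less RNA per cell cannot be told apart.

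Txnip (ENSMUSG00000038393.14) lies on mm10 chromosome 3, from 96557957 to 96561883 on the plus strand. Among these genes its promoter alone held the paired element searched for as a carbohydrate response element, and it is shown for that reason, with those of Arrdc4 and Mlxipl, which held the single core CACGTG. The 250 bases before the annotated start are given 5′ to 3′ on the gene's strand, from RefSeq (GRCm38.p6). Capitals mark the matches described after them.
Txnip chr3:96557707-96557956 (plus): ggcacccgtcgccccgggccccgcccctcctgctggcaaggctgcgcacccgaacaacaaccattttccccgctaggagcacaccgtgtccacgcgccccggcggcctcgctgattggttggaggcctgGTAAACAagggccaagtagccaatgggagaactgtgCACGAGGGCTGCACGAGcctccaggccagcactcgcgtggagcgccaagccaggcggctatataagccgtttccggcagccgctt
Arrdc4 chr7:68749239-68749488 (minus): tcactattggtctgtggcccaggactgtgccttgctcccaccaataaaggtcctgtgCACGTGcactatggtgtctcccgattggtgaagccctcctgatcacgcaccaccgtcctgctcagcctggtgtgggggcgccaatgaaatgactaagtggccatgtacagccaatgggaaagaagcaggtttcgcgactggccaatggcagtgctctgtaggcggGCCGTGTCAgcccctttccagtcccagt
Mlxipl chr5:135089640-135089889 (plus): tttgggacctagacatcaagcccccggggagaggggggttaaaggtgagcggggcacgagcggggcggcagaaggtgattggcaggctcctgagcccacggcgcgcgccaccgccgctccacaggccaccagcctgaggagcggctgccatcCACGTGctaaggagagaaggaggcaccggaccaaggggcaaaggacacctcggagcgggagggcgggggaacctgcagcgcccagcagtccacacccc

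The paired motif was written as CACGNG, then 5 bases of any kind, then CNCGNG, and was searched on both strands. The match in the Txnip promoter begins 85 bases before the start, and 92 of 32851 RefSeq promoters of the same length (0.28%) hold such a match. GTAAACA, a core bound by forkhead factors, begins 121 bases before the Txnip start and is found in 3.17% of promoters. CACGTG, a core that can form part of the paired motif, begins 193 bases before the Arrdc4 start and 98 bases before the Mlxipl start, and is held by 6.02% of promoters. TGACNNNGC, the core of the antioxidant response element, was matched on the opposite strand 28 bases before the Arrdc4 start and 92 bases before 1 of the annotated Txnrd1 starts, and is held by 10.2% of promoters. Of the 15 promoter windows of the 10 genes, 4 held any of these motifs, and 6 genes had no match in these windows. The matches describe letters in the reference sequence, not occupied sites, and the motifs were chosen with these promoters in view.

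Txnip stood at 767, 546, 503, 510 and 524 CPM in HFpEF libraries 1 to 5 and at 355, 356, 223, 256 and 188 CPM in Control libraries 1 to 5. Every HFpEF library was above every Control library, and HFpEF 1 stood apart above the other HFpEF libraries. The groups averaged 570 ± 111 CPM in HFpEF and 275 ± 76.7 CPM in Control (SD, n = 5 each), with a log2 fold change of 1.05 ± 0.21 (95% interval 0.58 to 1.52) and an adjusted p of 0.0229. Over all genes tested, 3.88% had every HFpEF library above every Control library, and 2.93% every one below. Without HFpEF 1 the log2 fold change was 0.92 (adjusted p = 0.0357). The call was lost when Control 3 was omitted (0.98, adjusted p = 0.0598) and when both Control 4 and Control 5 were (0.88, adjusted p = 0.0704), within a range of 9.97e-05 to 0.0704 over the 19 alternatives tried. Control 5 and Control 4 hold the lowest and a middle Txnip value of their group, and the direction was the same in all 19.

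Per kilobase of exon, Txnip was the most abundant of the 10 transcripts, at 182 ± 35.6 CPM per kb in HFpEF and 88.2 ± 24.6 CPM per kb in Control. Among the 18474 tested genes with an exon length, that level ranked 114 in HFpEF and 217 in Control. Mlxip, the next of the 10 on this scale in HFpEF, stood at 11.3 CPM per kb in HFpEF and 9.16 in Control. Exons of an antisense gene model, Gm15441, cover 19.4% of the exonic bases of Txnip, and the labels do not say whether reads were counted by strand. Gm15441 held 7 to 11 counts per library in HFpEF and 6 to 17 in Control, too few to be tested, and Txnip held at least 7097 counts in every library.

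**Figure D2:**
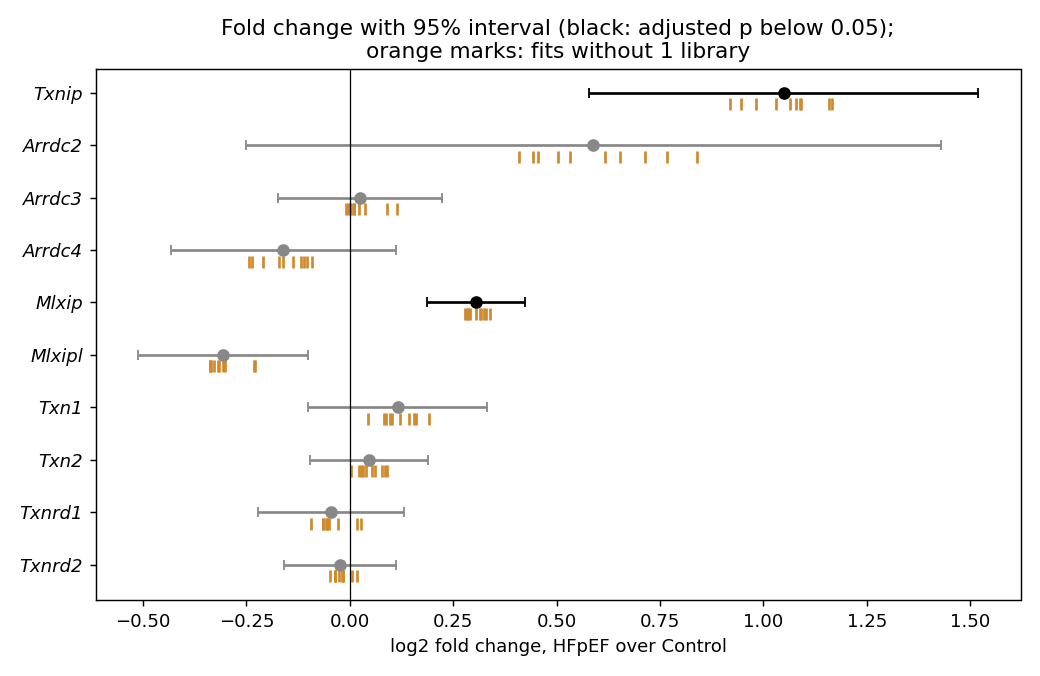
Points show the log2 fold change of each gene, HFpEF over Control, with its 95% interval (black where the adjusted p was below 0.05), and orange marks show the 10 fits that each left out 1 library. Txnip (1.05) and Mlxip (0.30) were called, the Mlxipl interval (-0.51 to -0.10) lies below 0 without a call, and the Arrdc2 interval (-0.25 to 1.43) is the widest.

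None of the 3 other arrestin genes was called, either by edgeR or by DESeq2, and none had an unadjusted p below 0.05. Their products recruit Nedd4-family ubiquitin ligases to membrane proteins such as receptors and transporters. Arrdc2 (chromosome 8, 70835129 to 70839720, minus strand) had 10.4, 8.03, 11.6, 18.6 and 14.5 CPM in HFpEF libraries 1 to 5 and 5.02, 6.07, 12.5, 13.3 and 4.97 CPM in Control libraries 1 to 5. Control 3 and Control 4 lay among the HFpEF libraries and the other 3 Control libraries lay below all of them. The averages were 12.6 ± 4.07 CPM in HFpEF and 8.38 ± 4.18 CPM in Control (SD, n = 5 each). The log2 fold change of 0.59 ± 0.37 had a 95% interval from -0.25 to 1.43 (adjusted p = 0.420), so a rise of the size seen for Txnip was within it. Arrdc2 was the most variable of the 10 genes, with a coefficient of variation of 32.3% in HFpEF and 49.9% in Control, against 19.5% and 27.9% for Txnip.

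Arrdc3 (chromosome 13, 80883384 to 80896042, plus strand), known for its role in beta-adrenergic receptor trafficking and energy expenditure, averaged 40.1 ± 4.32 CPM in HFpEF and 39.4 ± 5.11 CPM in Control (SD, n = 5 each). HFpEF values ran from 32.7 to 43.8 CPM and Control values from 35.4 to 48.1 CPM, and the groups overlapped. Its log2 fold change of 0.02 ± 0.09 had an interval from -0.17 to 0.22 (adjusted p = 0.915). Arrdc4 (chromosome 7, 68736995 to 68749241, minus strand) had 7.88, 7.29, 5.38, 6.02 and 5.56 CPM in HFpEF libraries 1 to 5 and 8.59, 7.90, 6.97, 5.59 and 7.004 CPM in Control libraries 1 to 5. The groups overlapped, and in both the first and second libraries were the highest. Its log2 fold change was -0.16 ± 0.13 (interval -0.43 to 0.11, adjusted p = 0.519), and the upper bound lies below the lower bound of Txnip. Both intervals come from 1 fit, and the difference between these 2 genes was not tested. The alpha-arrestin Arrdc1 showed -0.09 ± 0.09 (adjusted p = 0.667), and Arrdc5 had too few counts to be tested.

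Of the 2 glucose-sensing factors, Mlxip was higher in HFpEF and Mlxipl had lower values there without a call. Mlxip (chromosome 5, 123394798 to 123457932, plus strand) had 91.5, 87.9, 90.8, 101 and 100.002 CPM in HFpEF libraries 1 to 5 and 80.7, 74.7, 72.1, 82.0 and 72.1 CPM in Control libraries 1 to 5. Every HFpEF library was above every Control library. The averages were 94.2 ± 5.87 CPM in HFpEF and 76.3 ± 4.73 CPM in Control (SD, n = 5 each), with a log2 fold change of 0.30 ± 0.06 (interval 0.19 to 0.42, adjusted p = 0.00546). Mlxip was called in all 19 alternatives, with log2 fold changes from 0.28 to 0.34 and adjusted p-values from 1.75e-05 to 0.0188.

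Mlxipl (chromosome 5, 135089890 to 135138382, plus strand) had 18.0, 25.0, 24.3, 22.6 and 24.7 CPM in HFpEF libraries 1 to 5 and 27.6, 26.8, 34.3, 27.9 and 25.4 CPM in Control libraries 1 to 5. Every HFpEF library was below every Control library, by a narrow margin between HFpEF 2 and Control 5. The averages were 22.9 ± 2.89 CPM in HFpEF and 28.4 ± 3.45 CPM in Control (SD, n = 5 each). The log2 fold change was -0.31 ± 0.10 (interval -0.51 to -0.10, unadjusted p = 0.00667 and adjusted p = 0.0835 by edgeR). DESeq2 called it lower (-0.30, adjusted p = 0.0377), and the other 18 alternatives did not, with adjusted p-values up to 0.159.

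The ratio of Mlxip to Mlxipl, each in CPM per kb of exon, was 3.38, 2.34, 2.49, 2.97 and 2.69 in HFpEF libraries 1 to 5 and 1.95, 1.85, 1.40, 1.96 and 1.89 in Control libraries 1 to 5. Mlxip was the more abundant of the pair in all 10 libraries, and the ratio was higher in each HFpEF library than in any Control library. This separation was fixed by the levels given above, since the groups were apart for both genes, in opposite directions, and it adds no further result. The ratio of Txnip to Txn1 on the same scale was 37.5, 20.2, 16.1, 18.6 and 21.7 in HFpEF libraries 1 to 5 and 14.6, 13.6, 10.2, 11.9 and 7.17 in Control libraries 1 to 5. That ratio was also higher in each HFpEF library than in any Control library, and it compares transcripts, not proteins. Txnip levels alone were already apart between groups while Txn1 levels overlapped, so the ratio is not a result separate from that of Txnip. The ratios were computed after the levels had been seen, and they are given with no test.

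**Figure D3:**
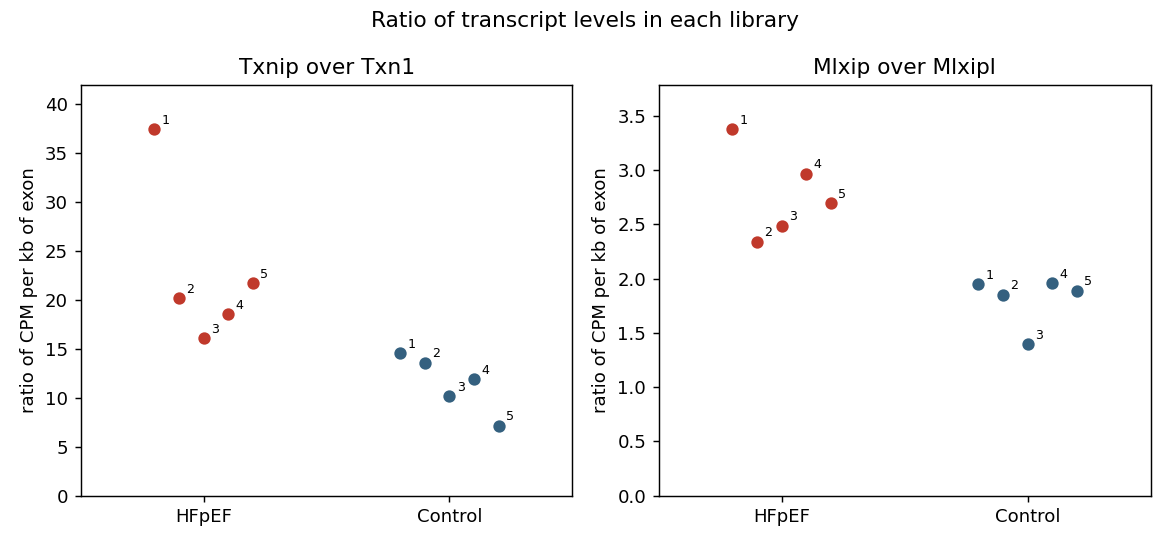
The left panel plots the ratio of Txnip to Txn1 and the right panel that of Mlxip to Mlxipl, in CPM per kb of exon, with 1 point per library, HFpEF in red and Control in blue. In both panels every HFpEF library lies above every Control library, from 16.1 upward against 14.6 and below on the left and from 2.34 upward against 1.96 and below on the right. The separation on the right follows from the levels of Mlxip and Mlxipl alone. On the left, Txnip levels alone were already apart between groups, while those of Txn1 overlapped.

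The thioredoxins and their reductases did not pass the test in either direction. Txn1 (chromosome 4, 57943373 to 57956411, minus strand), the cytosolic thioredoxin that Txnip binds, had 6.88, 9.09, 10.5, 9.25 and 8.12 CPM in HFpEF libraries 1 to 5 and 8.20, 8.79, 7.38, 7.22 and 8.81 CPM in Control libraries 1 to 5. HFpEF libraries held both the lowest and the highest value. The averages were 8.77 ± 1.35 CPM in HFpEF and 8.08 ± 0.757 CPM in Control (SD, n = 5 each), and the log2 fold change was 0.12 ± 0.10 (interval -0.10 to 0.33, adjusted p = 0.569). A pseudogene, Txn-ps1, matches Txn1 at 95.8% identity over 309 bases and had 0 counts in all libraries.

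Txn2 (chromosome 15, 77915047 to 77929006, minus strand), the mitochondrial thioredoxin, averaged 42.7 ± 3.29 CPM in HFpEF and 41.3 ± 3.68 CPM in Control, with a log2 fold change of 0.05 ± 0.07 (interval -0.10 to 0.19, adjusted p = 0.757). Txnrd1 (chromosome 10, 82833951 to 82897712, plus strand), the cytosolic reductase, averaged 21.96 ± 2.57 CPM in HFpEF and 22.6 ± 2.14 CPM in Control, with a log2 fold change of -0.05 ± 0.08 (interval -0.22 to 0.13, adjusted p = 0.811). The mitochondrial reductase Txnrd2 (chromosome 16, 18426384 to 18479073, plus strand) averaged 11.7 ± 0.769 CPM in HFpEF and 11.9 ± 0.645 CPM in Control, with a log2 fold change of -0.02 ± 0.06 (interval -0.16 to 0.11, adjusted p = 0.878). Each of these 3 intervals excludes the 1.23-fold rise of Mlxip, which is 0.30 on the log2 scale, while that of Txn1 (upper bound 0.33) does not.

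Per kilobase of exon, the genes after Txnip and Mlxip came in the order Txn2 (10.2 CPM per kb in HFpEF and 9.82 in Control), Txn1 (8.34 and 7.69), Arrdc3 (6.40 and 6.29) and Mlxipl (4.14 and 5.13). Below them were Arrdc2 (3.90 and 2.59), Txnrd1 (3.10 and 3.19), Txnrd2 (2.66 and 2.70) and Arrdc4 (1.59 and 1.79). This is the order in HFpEF; in Control, Txn2 stood above Mlxip, and Txnrd1 and Txnrd2 above Arrdc2. Neighbours in this order lay close together, and differences between genes were not tested. The order depends on the length used. Over the longest coding transcript, Txn2 (20.8 CPM per kb in HFpEF and 20.2 in Control) came above Mlxip (12.9 and 10.4), while Txnip stayed first at 202 in HFpEF and 97.4 in Control.

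Within groups, several libraries held the lowest or highest value of their group for more than 1 of these genes, and not all are listed here. HFpEF 1 was the lowest HFpEF library for Arrdc3, Mlxipl, Txn1, Txn2, Txnrd1 and Txnrd2 and the highest for Txnip and Arrdc4. Over all genes tested HFpEF 1 was the lowest of its group for 25.9% and the highest for 25.9%, and its TMM factor was 1.02, against 0.929 to 0.969 in the other HFpEF libraries. Control 5 was the lowest Control library for Txnip, Arrdc2, Arrdc3 and Mlxipl and the highest for Txn1, Txn2 and Txnrd1, against 23.8% lowest and 24.1% highest over all genes tested. Control 3 was the lowest for Mlxip, Txn2, Txnrd1 and Txnrd2 and the highest for Mlxipl, against 25.8% and 24.7% over all genes. Control 4 was the lowest for Arrdc4 and Txn1 and the highest for Arrdc2, Arrdc3 and Mlxip, against 16.7% and 17.1% over all genes. HFpEF 3 was the lowest for Txnip and Arrdc4 and the highest for Arrdc3, Txn1 and Txnrd1, against 19.1% and 19.3%.

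**Figure D4:**
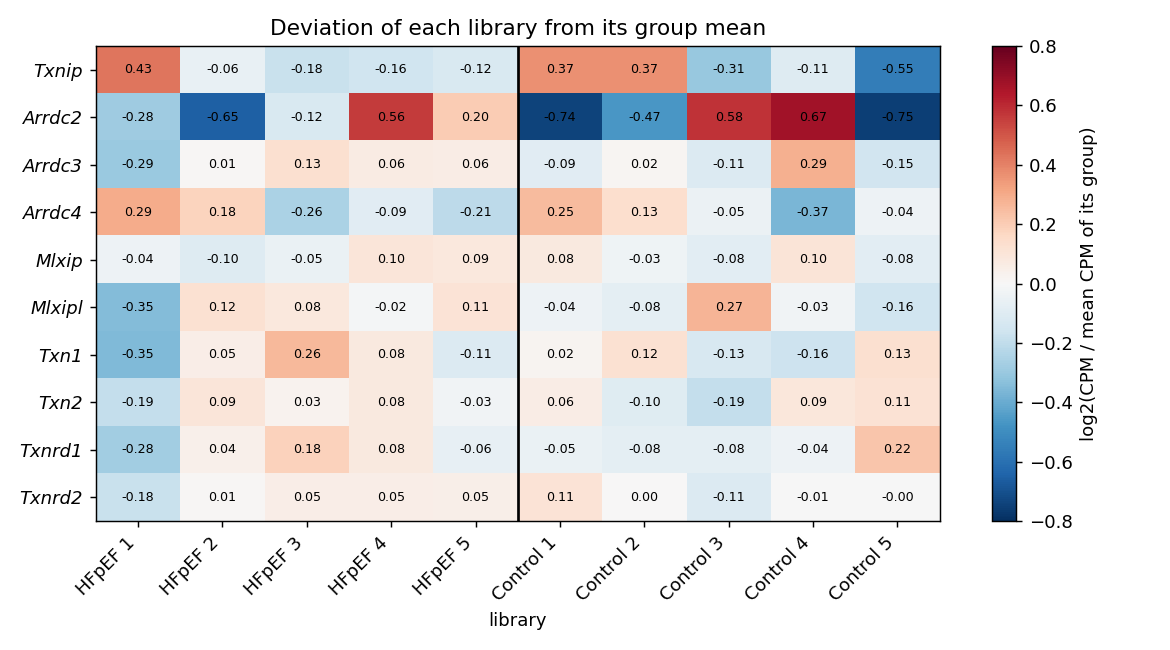
Each cell gives log2 of a library's CPM over the mean CPM of its group, for the 10 genes (rows) in the 5 HFpEF libraries (left) and the 5 Control libraries (right), with red above and blue below the group mean. HFpEF 1 is above its group mean for Txnip (0.43) and Arrdc4 (0.29) and below it for the other 8 genes, and Arrdc2 shows the widest deviations, from -0.75 to 0.67.

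The relation of Txnip to each of the other 9 genes was measured over the 10 libraries on deviations of log2 CPM from the group means, with exact permutation within groups and adjustment over the 9 pairs. None passed the adjustment. Txnrd1 had the lowest value, with Pearson r = -0.72 (permutation p = 0.0122, adjusted 0.109) and Spearman rho = -0.58 (p = 0.105, adjusted 0.473). Arrdc4 had the highest, with r = 0.64 (permutation p = 0.0608, adjusted 0.274) and rho = 0.58 (p = 0.103, adjusted 0.473). Without the 2 libraries farthest from the median of Txnip, HFpEF 1 and Control 2, r was -0.55 for Txnrd1 and 0.44 for Arrdc4. Mlxip gave r = 0.20 and Mlxipl r = -0.45 (adjusted permutation p = 0.669 and 0.616), and without those libraries r was 0.51 for Mlxip and 0.02 for Mlxipl. For Arrdc3, Txn2 and Txnrd2 the sign of r turned without those libraries (0.15, 0.11 and 0.61).

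Deviations from the group means were compared over the 10 libraries for the 12779 genes at or above 1 in mean log2 CPM. With unnamed gene models left out, the genes most like Txnip were Klf11 (r = 0.96), Usp53 (0.93), H3f3b (0.92), Mid2 (0.92) and Dhrs7 (0.91). These r describe libraries that share depth and scaling, and they carry no p. Klf11, a Krüppel-like transcription factor, had a log2 fold change of 0.57 ± 0.07 (adjusted p = 0.000347). The other 4, which encode a protein of the ubiquitin-specific protease family, histone H3.3, a ubiquitin ligase of the tripartite motif family and a short-chain dehydrogenase/reductase, had log2 fold changes from -0.07 to 0.15 and were not called. For 2 of the other genes, chosen after values were seen, the closest by the same rule were Bcl2l1 for Arrdc2 (r = 0.96) and Slc2a1, the glucose transporter GLUT1, for Mlxipl (r = 0.95).

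Lists of genes around these 10 are given by their counts of calls and their medians. In the network of Mlx and its relatives, 1 of 9 tested genes was called higher and none lower, with a median log2 fold change of -0.00. The shared partner Mlx itself showed -0.06 ± 0.06 (8.73 ± 0.170 CPM in HFpEF and 9.06 ± 0.506 CPM in Control; adjusted p = 0.667). The call was Myc (0.51 ± 0.13, adjusted p = 0.0290), a growth-promoting factor of the same helix-loop-helix class. Of the 10 fits that each omitted 1 library, those omitting Control 1, Control 3 or HFpEF 2 called it and the other 7 did not (p up to 0.0688 after adjustment), nor did the fit omitting both Control 4 and Control 5.

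Of 19 tested genes known from liver and other tissues as targets of carbohydrate response elements, 1 was called higher and 4 lower. The other 14 were not called, and the median was -0.05. By edgeR 10 of the 19 had an unadjusted p below 0.05, against 3789 of all 18491 genes. The share called over all genes was 5.33%, and the list was chosen with earlier results of these data known. Pfkfb3, which makes the activator of the glycolytic enzyme phosphofructokinase, stood at 12.001 ± 1.14 CPM in HFpEF and 19.0 ± 3.04 CPM in Control (SD, n = 5 each; log2 fold change -0.66 ± 0.10, adjusted p = 0.00246). Tkt, transketolase of the pentose phosphate pathway, was lower by -0.33 ± 0.06 (adjusted p = 0.00538). The fatty acid synthesis genes Acaca (-0.28 ± 0.06, adjusted p = 0.0155) and Fasn (-0.34 ± 0.08, adjusted p = 0.0215) were lower, and Me1, the cytosolic malic enzyme that makes NADPH, was higher (0.39 ± 0.08, adjusted p = 0.0119). The Fasn call was lost on omission of Control 1, Control 3, Control 4, HFpEF 3 or HFpEF 4 (p up to 0.0621 after adjustment), and those of the other 4 were kept in all 10 fits without 1 library.

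Of 34 tested genes for thioredoxin-fold proteins and for enzymes that draw electrons from thioredoxin, 2 were called higher, 1 lower and 31 were not called, with a median of 0.03. Msrb3, a methionine sulfoxide reductase, stood at 78.4 ± 3.75 CPM in HFpEF and 58.6 ± 5.82 CPM in Control (SD, n = 5 each; 0.42 ± 0.06, adjusted p = 0.00155). The membrane-bound disulfide oxidoreductases of the endoplasmic reticulum went in both directions, with Tmx4 higher (0.34 ± 0.06, adjusted p = 0.00263) and Tmx1 lower (-0.39 ± 0.07, adjusted p = 0.00735). These 3 calls were kept in all 10 fits without 1 library. The 6 peroxiredoxin genes, main clients of thioredoxin, had log2 fold changes from -0.09 to 0.11 and unadjusted p-values of 0.192 or more. Of 12 selenoprotein and selenoprotein synthesis genes, none was called higher and 1 lower (median -0.07). It was the glutathione peroxidase gene Gpx1 (-0.37 ± 0.09, adjusted p = 0.0315). The Gpx1 call was lost on omission of Control 1, of Control 2, or of any HFpEF library but HFpEF 2 (p up to 0.0904 after adjustment), and when both Control 4 and Control 5 were omitted.

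Of 16 tested targets of NRF2, the factor that induces Txn1, Txnrd1 and other antioxidant genes, none was called higher and 1 lower (median -0.05). This was Gclm, a subunit of the enzyme that limits glutathione synthesis, at 14.7 ± 0.346 CPM in HFpEF and 18.1 ± 1.54 CPM in Control (SD, n = 5 each; -0.30 ± 0.06, adjusted p = 0.0112). Its call was kept in all 10 fits without 1 library but was lost when both Control 4 and Control 5 were omitted (adjusted p = 0.0605). Of 9 genes whose products are known to interact with Txnip or to be under its control, none was called in either direction by edgeR, DESeq2 or limma-voom, with 1 at an unadjusted p below 0.05 and a median of 0.06. The smallest p in that group was that of Slc2a1 (-0.30 ± 0.10, adjusted p = 0.0946). Of 8 tested Nedd4-family ligases, 1 was called higher, Hecw2 (0.34 ± 0.08, adjusted p = 0.0270), and none lower (median 0.02). Hecw2 was not called when Control 1, Control 2 or HFpEF 4 was omitted (p up to 0.0699 after adjustment), nor when both Control 4 and Control 5 were (0.0749).

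Txnip is also induced by glucocorticoids and by fasting, and 20 genes of those responses were listed for that reason. Of these, 3 were called higher, 1 lower and 16 were not called, with a median of 0.38 and 17 positive log2 fold changes. By edgeR 13 of the 20 had an unadjusted p below 0.05. Among all 18491 genes tested, 8726 log2 fold changes were positive, 3789 had an unadjusted p below 0.05 and 5.33% were called. This list, like the others, was chosen with earlier results of these data known. Zbtb16, a zinc finger factor gene induced by glucocorticoids, was higher by 0.61 ± 0.08 (adjusted p = 0.000931), and its call was kept in all 10 fits without 1 library. Angptl4, an inhibitor of lipoprotein lipase, was higher (1.65 ± 0.38, adjusted p = 0.0417) and the metallothionein gene Mt2 was lower (-1.63 ± 0.35, adjusted p = 0.0290). Angptl4 was called in 2 of the 10 fits that omitted 1 library, those omitting HFpEF 1 or HFpEF 4, and in the other 8 its adjusted p reached 0.0857. The Mt2 call was lost on omission of Control 2 or of any HFpEF library but HFpEF 3 (p up to 0.0739 after adjustment). Both calls were also lost with no filter on low counts, with limma-voom, and when both Control 4 and Control 5 were omitted. The number of calls in this list was 7 with DESeq2 and 2 with limma-voom.

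**Figure D5:**
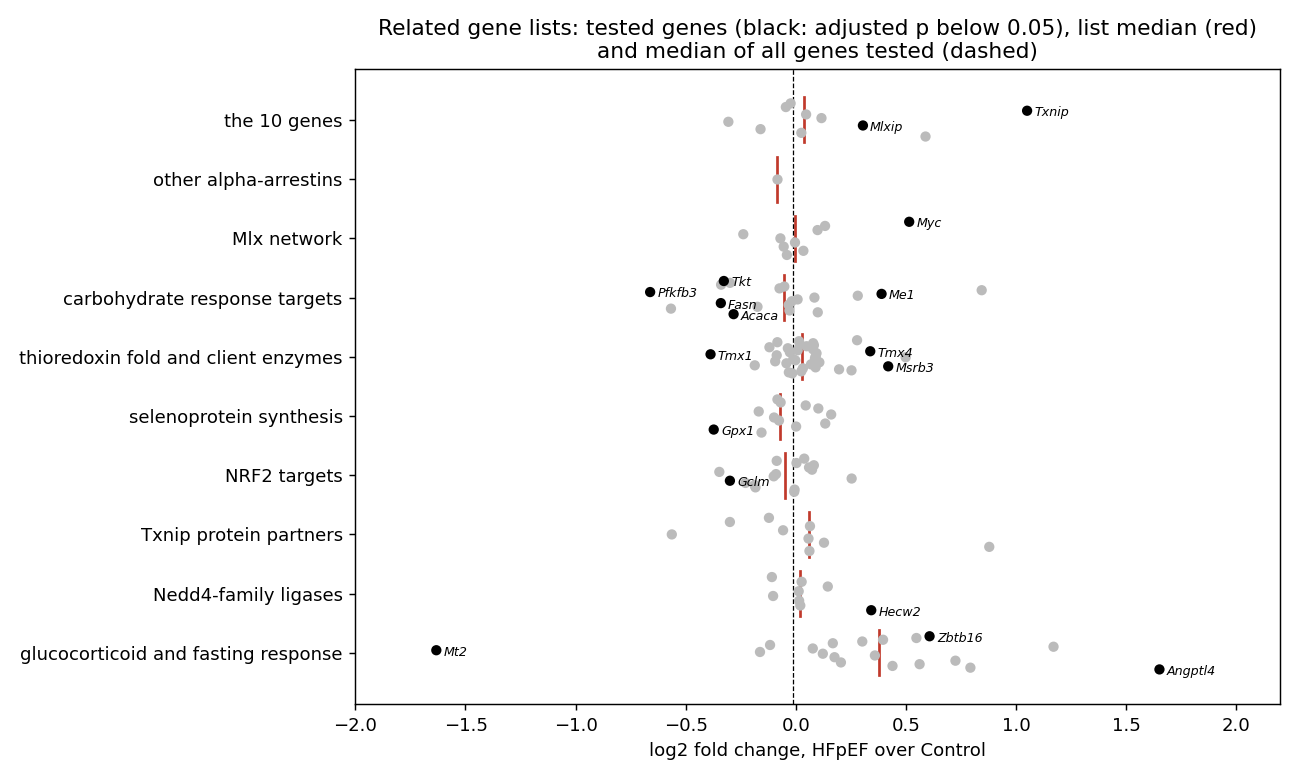
Each row is a list of related genes, with the 10 genes themselves at the top, and each point is the log2 fold change of a tested gene, HFpEF over Control, in black and named where the adjusted p was below 0.05; 1 called gene of the last list is not drawn. Red bars mark list medians, which lie between -0.09 and 0.06 except for the glucocorticoid and fasting list at 0.38, and the dashed line marks the median of all genes tested (-0.01).

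Markers of other cell types were followed beside these results, whether or not they differed between groups. Of 8 macrophage markers none was called by edgeR with all 10 libraries and the filter on low counts (5 at an unadjusted p below 0.05). The count was 3 with DESeq2, and 1 in edgeR with no filter and when Control 4 was omitted. All 8 log2 fold changes were negative, with a median of -0.30. Among the 18491 genes tested, 8726 log2 fold changes were positive and 3789 unadjusted p-values were below 0.05. The summed level of the macrophage markers, led by Lyz2, ran from 111 to 146 CPM in HFpEF and from 135 to 221 CPM in Control. Endothelial markers summed to 764 to 837 CPM in HFpEF and 821 to 979 CPM in Control, led by Cdh5, with 2 of 8 called lower, Egfl7 (-0.30 ± 0.07, adjusted p = 0.0225) and Emcn (-0.27 ± 0.07, adjusted p = 0.0447). Omitting Control 1, HFpEF 3 or HFpEF 4 ended the Egfl7 call (p up to 0.0691 after adjustment), and of the 10 fits that omitted 1 library, those omitting Control 4 or HFpEF 1 kept the Emcn call (otherwise p up to 0.119). None of the 8 fibroblast markers, 8 smooth muscle and pericyte markers, 6 tested lymphocyte markers and 5 red cell markers was called by edgeR with all 10 libraries, with 2, 1, 0 and 0 at an unadjusted p below 0.05. DESeq2 called 1 fibroblast marker, and edgeR called 1 fibroblast marker when Control 2 was omitted and 1 red cell marker when HFpEF 5 was omitted. The most expressed of these were Gsn for fibroblasts, Rgs5 for smooth muscle and pericytes, Ptprc for lymphocytes and Hba-a2 for red cells, with log2 fold changes from -0.08 to 0.23. Adipocyte markers, led by Plin1, summed to 0.0972 to 0.716 CPM in HFpEF and 0.238 to 1.04 CPM in Control. Cidea, listed with Ucp1 as a brown fat marker, was higher in HFpEF (11.97 ± 1.03 CPM in HFpEF and 7.61 ± 1.53 CPM in Control; 0.64 ± 0.12, adjusted p = 0.00796). Atrial markers summed to 16.1 to 30.2 CPM in HFpEF and 38.2 to 59.3 CPM in Control, nearly all from the natriuretic peptide gene Nppa, which was lower (-1.19 ± 0.22, adjusted p = 0.0187) with its call lost when both Control 4 and Control 5 were omitted. Of the 5 atrial markers 3 were tested, with a median log2 fold change of -0.43 and 2 at an unadjusted p below 0.05. None of the 3 log2 fold changes was positive. Skeletal muscle markers, led by Ckm, summed to 387 to 570 CPM in HFpEF and 556 to 730 CPM in Control. Of these 7 markers 2 were tested, with a median log2 fold change of -0.49 and 1 at an unadjusted p below 0.05. Neither was called by edgeR, and DESeq2 called 1. The part of any of these cell types in the values of Txnip, Mlxip and Mlxipl was not tested.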

How the data were processed

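RNA from 10 left ventricle libraries was depleted of ribosomal RNA and sequenced as total RNA, per the labels' protocols. The submitters' processing notes list Bowtie2 2.1.0 and RSEM 1.2.15, with mm10 as the build, and give no order of steps. RSEM shares out reads that fit several transcripts; the values the authors deposited were taken as its expected counts per gene, with no normalization. They are whole numbers, and rounding changed 0 of them. The table also holds 92 ERCC spike-in rows at 0 counts, which were left out. Strandedness is not stated.

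Genes were kept by filterByExpr at a minimum count of 10 (18491 of 55385). The test was edgeR 4.0.16 in R 4.3.3, using TMM factors and robust quasi-likelihood fits with a group term alone, adjusted by Benjamini-Hochberg. Intervals are 95%, and each SE is the fold change divided by the root of its F statistic. The common biological coefficient of variation was 0.0965. Lengths and coordinates came from GENCODE M21, which matched 55144 genes by identifier, and near-identical transcripts were sought with BLAST 2.17.0+. By a chi-square comparison of counts, no 2 libraries of a group agreed within sampling noise. The test was first tested on simulated data.

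The genes and lists were chosen with earlier results of these data known. All 10 genes are named. In each related list every called gene is named (except 1 that is not reported here, though counts and medians include it), or that with the smallest p where none was, and the most expressed marker where a marker list is mentioned. Mlx, Arrdc1 and a few genes that overlap or resemble the 10 were named after their values were seen. Alternatives were RLE and upper quartile scaling, no filter and a minimum count of 50, library sizes without mitochondrial genes, a replicate block, DESeq2 1.42.0, limma-voom (limma 3.58.1) and leaving out each library. Leaving out Control 4 and Control 5 together was added after seeing the data. This pair had the highest library totals (42150605 and 46108710 counts) and the lowest mitochondrial shares (34.4% and 33.6%).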

Additional observations from a re-analysis of the deposited data

Results flagged for a closer look

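In 4 of the 20 groups of 5 libraries looked at (10 genes in each group), 1 library lay far from the rest, with a gap to its nearest neighbour above 0.71 of the group's whole range, Dixon's 95% limit. Chance flags about 1 in 20 such groups. Txnip in HFpEF 1 stood at 767 CPM, with the nearest HFpEF library at 546 CPM (gap 0.838 of the range), and without HFpEF 1 its log2 fold change was 0.92 (adjusted p = 0.0357 by edgeR). Txnrd2 in HFpEF 1 stood at 10.4 CPM with the nearest at 11.8 CPM (0.790), and without it the log2 fold change was 0.018 (adjusted p = 0.902). Mlxipl in Control 3 stood at 34.3 CPM with the nearest at 27.9 CPM (0.722), and without it the adjusted p was 0.142. Txnrd1 in Control 5 stood at 26.4 CPM with the nearest at 21.97 CPM (0.888), and without it the log2 fold change was 0.026 (adjusted p = 0.889).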

How the results depend on the processing

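The number of genes called was 985, and ranged from 554 (without HFpEF 3) to 1101 (without HFpEF 1) when 1 library was left out; it was 630 without Control 1 and 633 without HFpEF 4. It was 1448 with DESeq2 and 773 without Control 4 and Control 5. Of the 10 genes, 2 were called higher, with a range of 1 to 2 when 1 library was left out and 1 without Control 4 and Control 5, and 0 were called lower, against 1 with DESeq2 (Mlxipl). The log2 fold change of Txnip ranged from 0.92 to 1.17 when 1 library was left out and was 0.88 without Control 4 and Control 5, where its call ended. Near-zero values changed sign: Arrdc3 ranged from -0.0082 to 0.11, Txnrd1 from -0.095 to 0.026 and Txnrd2 from -0.049 to 0.018 when 1 library was left out, and Txnrd1 was 0.028 without Control 4 and Control 5. Except for fewer libraries in those fits, the cause was not tested. No scaling moved the median of all genes by over 0.1 on the log2 scale.

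Replicate numbers did not pair the libraries over the genes tested as a whole. Deviations of same-numbered libraries correlated at -0.110 to 0.0638, and only HFpEF 4 correlated best with its own number. For Txnip, as for Arrdc4, libraries 1 and 2 were the highest in both groups, and pairing for single genes was not tested. With the numbers as a replicate block, 744 genes were called, and Txnip (1.08, adjusted p = 0.000739) and Mlxip (0.30, adjusted p = 0.0129) kept their calls in edgeR. The block ended the calls of Myc, Fasn, Tnnt2 and Nppa, and the glucocorticoid and fasting list then had 8 calls, against 4 without it, and the macrophage markers 2, against 0. With 5 libraries a group, the 95% interval of the log2 fold change was widest for Arrdc2 (-0.25 to 1.43), which limits what can be said of it.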
